A study of Mus musculus with 9 samples.

Results

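The 35 genes described here encode subunits of glutamate receptors and the proteins that hold those receptors at the synapse, out of 22601 genes in a count table of single cells from the mouse central amygdala. They were listed by name and by role, and all 35 were in the table: 4 AMPA receptor subunits (Gria1 to Gria4), 2 cornichon proteins that ride on AMPA receptors (Cnih2, Cnih3), 6 NMDA receptor subunits (Grin1, Grin2a to Grin2d, Grin3a), 5 kainate receptor subunits (Grik1 to Grik5), the delta receptor Grid1, 6 metabotropic receptors (Grm2 to Grm5, Grm7, Grm8) and 11 scaffold proteins (Dlg1 to Dlg4, Dlgap1 to Dlgap3, Shank1 to Shank3, Grip1). The cells came from acute brain slices of wild-type B6 mice, from which the central amygdala was cut out, broken up into single cells and pooled over slices. The labels give 1 group of 9 samples, with no treatment and no altered gene, and do not give the age of the animals. The 9 samples hold 3 animal numbers at each of 3 date fields. The labels do not say whether they are separate animals, so every p-value measures only the spread between these samples, which may be technical.

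Glutamate acts on channels that open when it binds and on metabotropic receptors that signal through G proteins. AMPA receptors carry most of the fast current, NMDA receptors admit calcium when the membrane is already depolarised, and kainate receptors act on both sides of the synapse. Scaffold proteins of the Dlg, Dlgap and Shank families form layers beneath the postsynaptic membrane to which the receptors are tied. The central amygdala is built mostly of GABA neurons, among which cells with protein kinase C delta (Prkcd) and cells with somatostatin (Sst) are the classes most often told apart, and both receive glutamate input from other parts of the amygdala and from the brainstem and thalamus.

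A cell counted as positive for a gene when at least 1 of every 10000 of its gene counts came from that gene, which is 100 CPM (counts of the gene per 1000000 gene counts). Cells with Gad1, Gad2 or Slc32a1 at that level, and with Slc17a7 and Slc17a6 of glutamate neurons both below it, were taken as inhibitory neurons, which held for 810 of 829 cells, 82 to 95 in a sample. They were divided 5 times, by whether they were positive for Prkcd (343 cells), Sst (148 cells), Isl1 (76 cells), Nr2f2 (116 cells) or Foxp1 (167 cells). Isl1, Nr2f2 and Foxp1 encode transcription factors. A further comparison set the 320 neurons with Prkcd and no Sst against the 125 with Sst and no Prkcd, leaving out 23 with both. The comparisons share cells, so they are not independent of each other. Within each sample the counts of a class were summed, and the sums of both classes were compared over all 9 samples with edgeR's quasi-likelihood test, with the sample as a block, so that animal number and date field are held equal in each comparison. Adjusted p-values are Benjamini-Hochberg values over all genes tested, and a gene passed when its value was under 0.05.

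The samples held between 8522750 and 22730327 gene counts, and the median neuron of a sample between 96675 and 227570. Isl1-positive neurons were deeper than the rest, with a median of 169577 counts and 5308 genes against 123695 counts and 4492 genes. Gad1 was positive in 89.6% and Gad2 in 94.9% of the neurons, and no neuron was positive for Neurod6 or Tbr1 of excitatory neurons. Of the defining genes of astrocytes, Gfap and Gja1 were positive in 0 neurons, and Aqp4 and Slc1a3 in 1 neuron each, while Slc1a2 was positive in 184 and Aldoc in 151. The microglia genes C1qa, C1qb and Tmem119 had 0 counts in the neurons, and the oligodendrocyte gene Mbp was positive in 210 neurons. The summed level of the 7 astrocyte genes was lower in Prkcd-positive than in Prkcd-negative neurons in 9 of 9 samples, with medians of 36.9 and 290.0 CPM, and higher in Isl1-positive than in other neurons in 9 of 9 samples, with medians of 477 and 174 CPM. The summed level of the 8 oligodendrocyte genes was higher in Prkcd-positive than in Prkcd-negative neurons in 8 of 9 samples, with medians of 156 and 100.2 CPM, and in the other sample it reached 4888 CPM in Prkcd-negative neurons. The endothelial genes were also higher in Prkcd-positive neurons in 8 of 9 samples, with medians of 99.3 and 65.1 CPM. Over all neurons, that sum was nearly all Itm2a, at 78.6 CPM and positive in 219, while Cldn5, Pecam1 and Flt1 were positive in 0. The astrocyte sum was likewise mostly Slc1a2 and Aldoc, at 77.4 and 125.7 CPM. A sum of genes of intercalated or striatal neurons, used below, was mostly Ppp1r1b, at 368.9 CPM and positive in 447 neurons. Its other genes, Foxp2, Tshz1, Drd1a and Drd2, were at 5.93 to 10.5 CPM. The part of the astrocyte, oligodendrocyte and endothelial genes in the results below was not tested beyond a fit without the Mbp-positive neurons.

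AMPA, NMDA, metabotropic and scaffold genes were each positive in most neurons, and kainate, cornichon and delta receptor genes in fewer. The median neuron was positive for 9 of the 35 genes, and the medians of single samples were 8 or 9. At least 1 AMPA subunit was positive in 99.6% ± 0.579 of neurons (mean and SD over 9 samples), at least 1 NMDA subunit in 90.3% ± 2.92, at least 1 scaffold gene in 92.7% ± 2.75 and at least 1 metabotropic receptor in 79.1% ± 3.36. At least 1 kainate subunit was positive in 38.4% ± 4.93 of neurons, at least 1 cornichon in 48.8% ± 6.65, and the delta receptor Grid1, which joins synapses through secreted cerebellins, in 12.6% ± 3.84. These shares depend on the number of genes in a family and on the level that counts as positive: with a single count in place of 100 CPM, Cnih2 was found in 79.3% of neurons in place of 14.2%, Grik5 in 59.8% in place of 17.4% and Grid1 in 54.9%. The labels give neither the chemistry nor the stretch of RNA that was read, so the levels that follow are compared between classes of neurons and not between genes.

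Among the AMPA subunits, Gria2, whose edited RNA makes the receptor nearly impermeable to calcium, stood at 1034 ± 50.6 CPM (SD, n = 9) and was positive in 98.7% of neurons. Gria1, the subunit most studied in synaptic plasticity, stood at 446 ± 28.0 CPM in 92.0% of neurons. Gria3, at 179 ± 31.7 CPM, was positive in 46.7%, and Gria4, at 61.5 ± 15.2 CPM, in 23.5%. The spread between samples was small for the first pair, at a coefficient of variation of 4.89% for Gria2 and 6.28% for Gria1, and wider for Gria3 (17.8%) and Gria4 (24.7%). Cnih3, a cornichon that slows the closing of AMPA receptors, stood at 145 ± 24.3 CPM in 41.2% of neurons, and its relative Cnih2 at 46.9 ± 8.79 CPM in 14.2%.

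Grin1, the subunit that every NMDA receptor needs, stood at 240.2 ± 21.8 CPM and was positive in 69.4% of neurons. Of the Grin2 subunits, which set how long the channel stays open, Grin2b stood at 169.9 ± 42.0 CPM in 60.4%, Grin2a at 32.1 ± 6.82 CPM in 13.5% and Grin2d at 8.15 ± 3.97 CPM in 3.30%. Grin2c, known mainly from the cerebellum, had 54 counts over all neurons and was positive in 1 of them. Grin3a, which lowers the calcium passed by NMDA receptors, stood at 44.0 ± 14.8 CPM in 12.0%. Grin2b also moved with the date field: its mean CPM over the 3 samples of a date was 125, 171 and 213, and the spread of its level over samples is therefore partly a spread between dates. It was not alone, as other genes of the list rose or fell over the dates, such as Grik5 (37.9, 44.9 and 52.9 CPM) and Grid1 (43.8, 42.1 and 31.4 CPM). No difference between dates was tested.

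The kainate subunits Grik2 and Grik5 stood at 40.6 ± 4.56 and 45.2 ± 10.5 CPM, Grik3 at 23.0 ± 8.34, Grik4 at 13.6 ± 3.91 and Grik1 at 5.01 ± 3.62, and their shares of positive neurons ran from 1.57% (Grik1) to 17.4% (Grik5). Grid1 stood at 39.1 ± 7.92 CPM. Of the metabotropic receptors, Grm5, which couples to calcium release, stood at 248 ± 15.8 CPM in 64.2% of neurons, and Grm7, a presynaptic receptor that damps release, at 97.9 ± 18.1 CPM in 35.6%. Grm8 (18.3 ± 5.73 CPM), Grm3 (13.3 ± 4.29), Grm4 (11.8 ± 3.62) and Grm2 (3.08 ± 1.98) were each positive in under 7% of neurons.

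Among the scaffolds, Dlgap1, which links Dlg to Shank proteins, stood at 350.2 ± 34.3 CPM in 76.9% of neurons. Dlg3 (75.2 ± 20.2 CPM), Dlg2 (56.3 ± 14.0), Dlg1 (52.9 ± 11.0), Dlgap2 (44.6 ± 7.84), Shank2 (43.2 ± 13.2), Grip1 (38.3 ± 7.60) and Dlgap3 (32.9 ± 11.6) were positive in 9.64% to 26.1% of neurons. The main postsynaptic Dlg protein, PSD-95, is encoded by Dlg4, which stood at 7.50 ± 2.65 CPM and was positive in 1.84%. Shank3 and Shank1 were as thinly counted, at 5.45 ± 3.80 and 3.13 ± 1.62 CPM. Cnih2, Grik5, Grm7, Shank1, Grip1 and Shank3 overlap another gene of the table with over 2 CPM, at 38.5 CPM for Yif1a, 20.8 for Zfp574, 13.1 for Gm20387, 7.36 for 1700008O03Rik, 4.13 for Helb and 2.11 for Gm15609. No label gives the strand of counting, and reads of the pairs may not have been told apart.

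**Figure D1:**
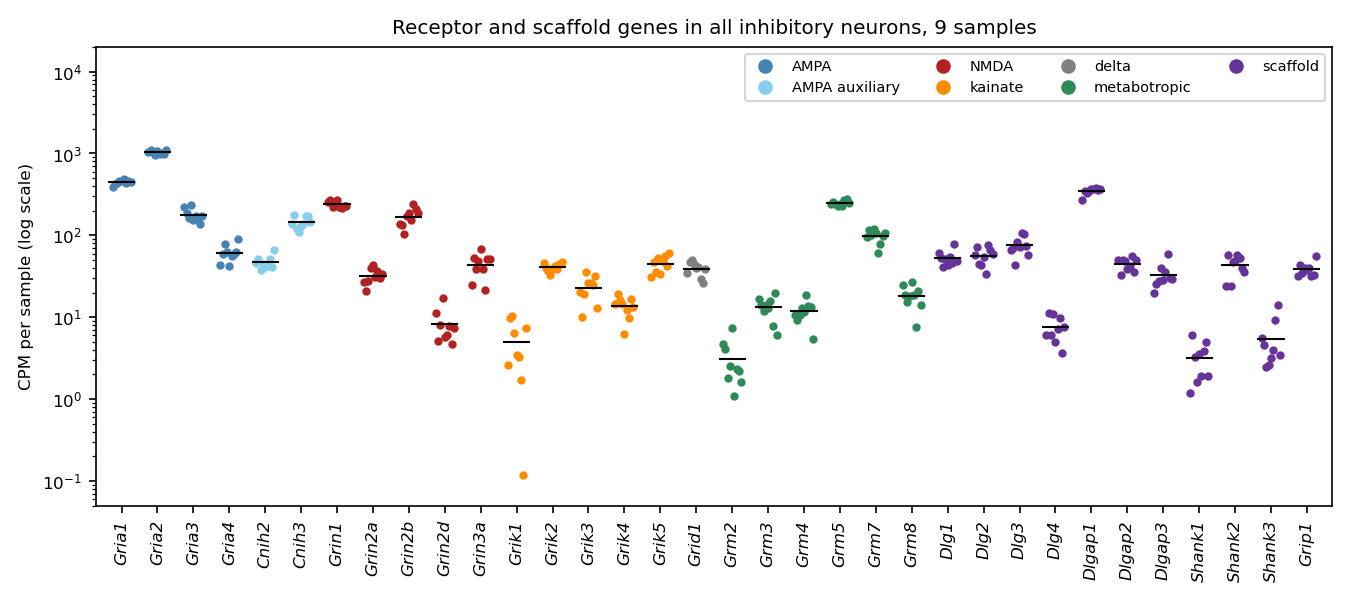
Level of 34 of the genes in all inhibitory neurons, as CPM on a log scale, with 1 point per sample (9 samples, colours by role) and a black line at the mean. Grin2c, with 54 counts in all, is left out, and the points of a gene lie closest together for Gria1, Gria2 and Grm5.

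Prkcd-positive neurons differed from Prkcd-negative neurons in 13 of the 34 genes tested, 4 higher and 9 lower. Gria3 was lower and Cnih3 higher by more than 2-fold each, the NMDA subunits Grin3a, Grin2d and Grin2b, the kainate subunits Grik2 and Grik4, the metabotropic receptors Grm2 and Grm8 and the scaffold Dlg1 were lower, and Shank2, Grm5 and Dlgap3 were higher. Of all 11487 genes tested, 7.6% were higher and 9.74% lower, so that the share of these genes that was higher (4 of 34) was near the background and the share that was lower (9 of 34) was above it. The median log2 fold change was 0.02 over the 34 genes and -0.02 over all genes. Grin2c did not pass the filter on low counts in this or any other comparison.

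Gria3 ranged from 78.9 to 126.5 CPM in Prkcd-positive neurons of the 9 samples, with a median of 97.1, and from 172.7 to 292.6 CPM in Prkcd-negative neurons, with a median of 220.6. The samples did not overlap. The mean was 96.9 ± 16.6 against 235.0 ± 42.4 CPM, a log2 fold change of -1.25 (SE 0.11, edgeR adjusted p = 3.56e-06), and the share of neurons positive for Gria3 was 28.8% against 60.1%. The other AMPA subunits did not pass: the log2 fold change was 0.16 (SE 0.08) for Gria1, 0.02 (SE 0.06) for Gria2 and -0.28 (SE 0.18) for Gria4.

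Cnih3 went the other way. It ranged from 183.6 to 306.4 CPM in Prkcd-positive neurons (median 234.1) and from 56.2 to 105.7 CPM in Prkcd-negative neurons (median 93.4), again without overlap. The means were 232 ± 39.5 and 84.2 ± 20.4 CPM, the log2 fold change 1.52 (SE 0.14, edgeR adjusted p = 7.21e-06) and the shares of positive neurons 60.9% and 26.8%. Cnih2 had a log2 fold change of 0.17 (SE 0.15) and did not pass.

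The strongest fold among the NMDA subunits was that of Grin3a. It lay between 0.116 and 14.1 CPM in Prkcd-positive neurons (median 7.14) and between 27.8 and 111.5 CPM in Prkcd-negative neurons (median 63.3), without overlap. The log2 fold change was -3.57 (SE 0.62, edgeR adjusted p = 0.00107), and 2.28% of Prkcd-positive against 18.9% of Prkcd-negative neurons were positive. Grin2d did not overlap between the classes either, at 3.24 ± 1.45 against 11.4 ± 5.33 CPM (log2 fold change -1.79, edgeR adjusted p = 0.0240), but the call was lost without sample 3, 4 or 6, where the adjusted p rose to at most 0.0565. Grin2b was 147.9 ± 46.4 against 185.1 ± 44.6 CPM, lower in 8 of 9 samples (log2 fold change -0.32, edgeR adjusted p = 0.0339). That call was lost without any one of samples 1, 2, 4, 6, 7 or 9, with an adjusted p of at most 0.0657. Grin2a stood at 18.1 ± 13.0 against 40.3 ± 10.9 CPM and missed the threshold (log2 fold change -1.45, edgeR adjusted p = 0.0526), and Grin1 had a log2 fold change of 0.15 (SE 0.10).

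Of the kainate subunits, Grik4 ranged from 0.467 to 16.9 CPM in Prkcd-positive neurons (median 3.96) and from 8.96 to 25.2 CPM in Prkcd-negative neurons (median 20.2). It was lower in Prkcd-positive neurons in each of the 9 samples, although the highest positive class, in sample 2, reached into the range of the negative ones. The log2 fold change was -2.47 (SE 0.45, edgeR adjusted p = 0.00160). Grik2 was also lower in 9 of 9 samples, at 23.9 ± 11.8 against 51.7 ± 9.93 CPM (log2 fold change -1.20, SE 0.27, edgeR adjusted p = 0.00649). Grik1, Grik3 and Grik5 did not pass, with log2 fold changes of -1.01, -0.34 and 0.03.

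Grm8, a presynaptic receptor of the inhibitory group III, ranged from 1.05 to 22.7 CPM in Prkcd-positive neurons (median 4.67) and from 12.2 to 42.5 CPM in Prkcd-negative neurons (median 26.7). It was lower in 8 of 9 samples, the exception being sample 2, and its log2 fold change was -2.39 (SE 0.53, edgeR adjusted p = 0.00648). Grm2, which also damps release, had 24 counts in Prkcd-positive and 377 in Prkcd-negative neurons (log2 fold change -3.96, SE 1.09, edgeR adjusted p = 0.0222), and it did not pass without sample 2 or sample 5, where the adjusted p was at most 0.0559. Grm5 was slightly higher in Prkcd-positive neurons, at 272 ± 23.2 against 232 ± 25.5 CPM in 8 of 9 samples (log2 fold change 0.26, SE 0.08, edgeR adjusted p = 0.0317). The Grm5 call was lost without any one of samples 1, 2, 3, 4, 6 or 8, with an adjusted p of at most 0.0947. Grm3, Grm4 and Grm7 did not pass, with log2 fold changes of 0.60, 0.01 and 0.14.

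Among the scaffolds, Shank2 ranged from 28.0 to 96.2 CPM in Prkcd-positive neurons (median 62.8) and from 17.2 to 41.7 CPM in Prkcd-negative neurons (median 29.4). It was higher in Prkcd-positive neurons in all 9 samples, with overlapping ranges, and its log2 fold change was 1.06 (SE 0.17, edgeR adjusted p = 0.000539). Dlg1, which encodes SAP97, a binding partner of the GluA1 subunit, was lower in 8 of 9 samples, at 36.7 ± 10.7 against 64.7 ± 19.4 CPM (log2 fold change -0.79, SE 0.23, edgeR adjusted p = 0.0280). The Dlg1 call was lost without sample 2 or sample 8, with an adjusted p of at most 0.0695. Dlgap3, a scaffold best known from the striatum, was higher in 9 of 9 samples, at 39.7 ± 13.3 against 27.9 ± 11.5 CPM (log2 fold change 0.56, SE 0.18, edgeR adjusted p = 0.0485), but it did not pass when any one of the 9 samples was left out, with an adjusted p of at most 0.120. Dlg2, Dlg3, Dlg4, Dlgap1, Dlgap2, Shank1, Shank3 and Grip1 did not pass, with log2 fold changes between -0.72 and 0.90.

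**Figure D2:**
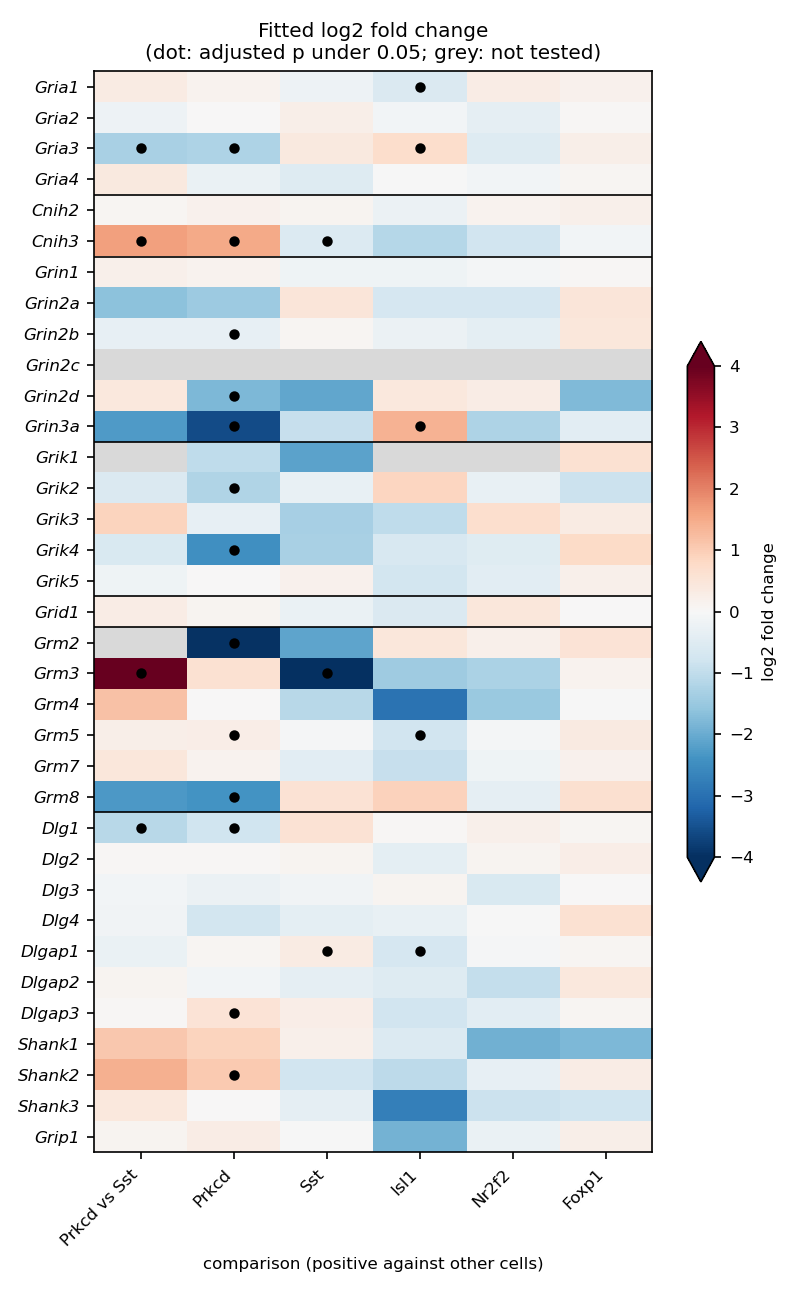
Fitted log2 fold change of the 35 genes (rows, in the order of their roles) in the 6 comparisons (columns), red for higher in the first or positive class and blue for lower. A dot marks an edgeR adjusted p under 0.05, grey marks a gene not tested, and the colours stop at 4 in either direction, which Grm3 exceeds at 5.42 in Prkcd against Sst and at -5.34 in the Sst comparison.

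**Figure D3:**
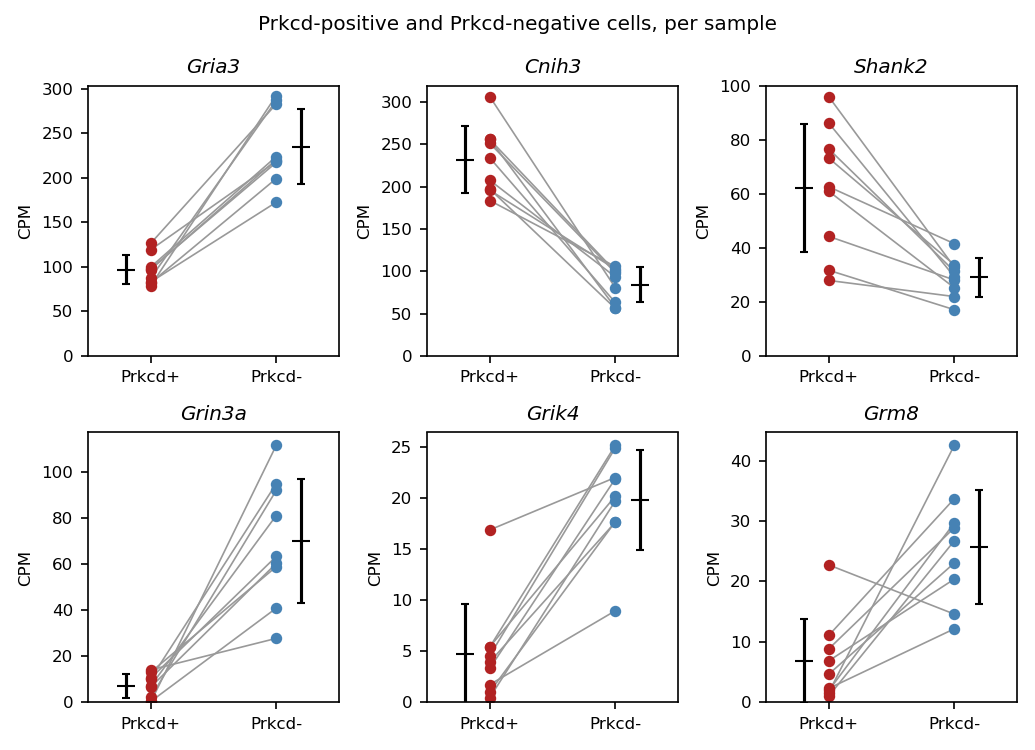
CPM of the 6 genes with the smallest adjusted p in the Prkcd comparison, with 1 point per sample and class, lines joining the classes of a sample, and mean ± SD beside the points (9 samples). Gria3, Cnih3 and Grin3a do not overlap between the classes, and sample 2 is the high point of Grik4 and Grm8 in Prkcd-positive neurons.

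Prkcd-negative neurons include those with Sst or Isl1. In a fit chosen after seeing the data, in which neurons positive for Sst or Isl1 were left out of both classes, Gria3 (log2 fold change -1.26, edgeR adjusted p = 6.4e-06), Cnih3 (1.54, adjusted p = 4.45e-05), Grin3a (-4.07), Grik4 (-2.72), Grm8 (-2.48), Grik2 (-1.20), Shank2 (1.08), Dlgap3 (0.76) and Grin2b (-0.38) passed. Dlg1 (-0.59), Grin2d (-2.44) and Grm5 (0.24) did not pass, with adjusted p-values of 0.137, 0.0773 and 0.149, and Grm2 did not pass the count filter there. With a positive neuron defined by a single count, Gria3, Cnih3 and Grin3a were the only 3 of the 13 genes to pass. Without the Mbp-positive neurons, Grin2b, Grin2d, Grm5, Dlg1 and Dlgap3 did not pass, with adjusted p-values from 0.125 for Dlg1 to 0.426 for Grm5, and Grm2 did not pass the count filter, while Gria3, Cnih3, Grin3a, Grik2, Grik4, Grm8 and Shank2 did.

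The make-up of the AMPA subunit counts differed accordingly. In Prkcd-positive neurons Gria3 made 5.92% ± 1.37 of the counts of Gria1 to Gria4, against 13.3% ± 2.35 in Prkcd-negative neurons, with no overlap over the 9 samples. Gria2 made 62.4% ± 2.39 against 58.5% ± 2.29 and was the larger share in 9 of 9 samples, and Gria1 made 28.5% ± 3.05 against 24.4% ± 2.77, larger in 8 of 9. Within the Grin2 counts, Grin2b made 87.5% ± 5.38 in Prkcd-positive and 77.8% ± 5.19 in Prkcd-negative neurons. Within the kainate counts, Grik4 made 4.89% ± 4.24 against 13.4% ± 3.23, and within Dlg1 to Dlg4, Dlg1 made 22.2% ± 6.66 against 30.7% ± 5.14, both the smaller share in 9 of 9 samples. Shares of a family sum to a whole, so that one gene's share moves those of the others, and they are given as a description with no test.

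**Figure D4:**
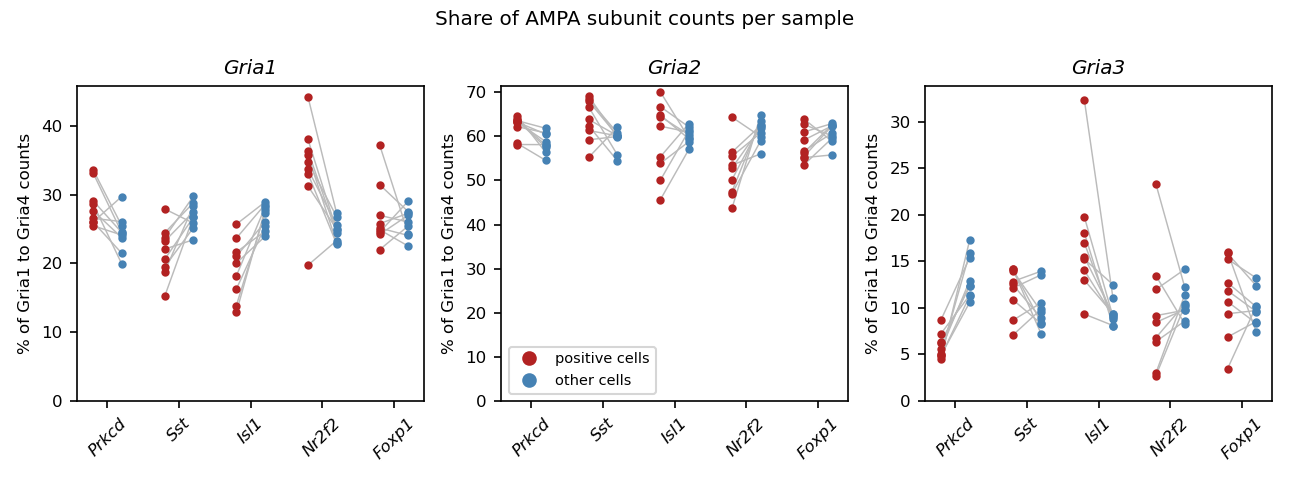
Share of Gria1, Gria2 and Gria3 in the summed counts of Gria1 to Gria4 (percent), for neurons positive for the gene named on the x axis (red) and all other neurons (blue), with 1 point per sample and lines joining the classes of a sample. The Gria3 shares of Prkcd-positive neurons (4.52% to 8.73%) lie below those of Prkcd-negative neurons (10.6% to 17.3%), and Gria1 makes the smaller share in Isl1-positive neurons of all 9 samples.

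Gria3 and Cnih3, which differed in opposite directions between the classes, were also read together in single neurons. Among the 343 Prkcd-positive neurons, Gria3 was positive in 67 of 208 with Cnih3 (32.2%) and in 31 of 135 without it (23.0%). Among the 467 Prkcd-negative neurons, it was positive in 76 of 124 with Cnih3 (61.3%) and in 205 of 343 without it (59.8%). Shank2, which was higher in Prkcd-positive neurons as Cnih3 was, was positive in 27.9% of Prkcd-positive neurons with Cnih3 and 17.0% of those without, and in 17.7% and 11.7% of Prkcd-negative neurons. Grin3a, lower in Prkcd-positive neurons as Gria3 was, was positive in 18.9% of the Prkcd-negative neurons with Gria3 and 19.4% of those without. Neurons positive for the first gene of a pair had more counts (medians of 126300 against 115000 for Cnih3 in Prkcd-positive neurons), and no test was made over cells.

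Prkcd neurons without Sst and Sst neurons without Prkcd, the classic pair of central amygdala classes, differed in 4 of 32 genes tested. Cnih3 and Grm3 were higher in the Prkcd neurons, and Gria3 and Dlg1 were lower. Of all 10398 genes tested, 4.38% were higher and 4.06% lower, against 2 of 32 each way. The median log2 fold change was 0.09 over the 32 genes and 0.16 over all, and -0.02 and 0.009 with no sample block. The Prkcd neurons are largely those of the previous comparison, so that Gria3, Cnih3 and Dlg1 are not counted afresh here, and Grik1 and Grm2 did not pass the count filter. Summed astrocyte genes were lower in the Prkcd neurons in 9 of 9 samples (medians of 34.3 and 285 CPM), endothelial genes were higher in 8 of 9 (106 and 36.7 CPM) and oligodendrocyte genes higher in 7 of 9 (157 and 129 CPM), and their part in these differences was not tested beyond the fit without Mbp-positive neurons.

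Cnih3 ranged from 185.3 to 306.4 CPM in the Prkcd neurons (median 235.5) and from 10.2 to 148.9 CPM in the Sst neurons (median 90.3), with no overlap (log2 fold change 1.65, SE 0.29, edgeR adjusted p = 0.00201). Gria3 ranged from 59.6 to 120.8 CPM in the Prkcd neurons (median 84.6) and from 86.7 to 336.3 CPM in the Sst neurons (median 236.6). It was lower in 8 of 9 samples, all but sample 9 (log2 fold change -1.29, SE 0.21, edgeR adjusted p = 0.00114). The 342 neurons with neither Prkcd nor Sst had means of 238 CPM of Gria3 and 84.8 CPM of Cnih3, beside 221 and 85.5 CPM in the Sst neurons.

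Grm3, a metabotropic receptor that inhibits cAMP formation, was higher in the Prkcd neurons. It ranged from 8.26 to 32.8 CPM in the Prkcd neurons, with a median of 15.3, and from 0 to 6.65 CPM in the Sst neurons, where 6 of 9 samples had 0 counts. It had 759 counts in the Prkcd neurons and 22 in the Sst neurons, and was positive in 6.79% of the former and in 0 of the 125 latter. At the level of 100 CPM that 0 allows a share of up to 2.40%, a limit that covers counting error only and takes the 125 neurons of 9 samples as independent. The mean was 17.2 ± 7.87 against 1.14 ± 2.32 CPM, and the fitted log2 fold change was 5.42 (SE 1.12, edgeR adjusted p = 0.00647). The size of that fold rests on few counts in the Sst neurons and on the fit: it was 3.85 with no sample block and 3.52 with limma on the mean CPM of single neurons. Neurons with neither gene had 15.1 CPM of Grm3. Dlg1 ranged from 16.0 to 51.8 CPM in the Prkcd neurons (median 34.0) and from 41.2 to 117.7 CPM in the Sst neurons (median 68.7), lower in 8 of 9 samples (log2 fold change -1.11, SE 0.28, edgeR adjusted p = 0.0232). Its call was lost without any one of samples 1, 2, 7 or 8, with an adjusted p of at most 0.0716, and without the Mbp-positive neurons it had an adjusted p of 0.173. The Grm3 call was lost with a neuron positive at a single count (log2 fold change 2.09, adjusted p = 0.337).

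Further genes had wide differences between Prkcd and Sst neurons that did not pass. Grin3a stood at 7.29 ± 5.64 against 44.1 ± 48.9 CPM (edgeR adjusted p = 0.166), Grm8 at 5.79 ± 4.35 against 27.6 ± 20.1 CPM (adjusted p = 0.113), Grin2a at 18.2 ± 12.3 against 47.5 ± 24.0 CPM (adjusted p = 0.197) and Shank2 at 65.1 ± 25.8 against 28.5 ± 20.3 CPM (adjusted p = 0.140). All 4 passed with DESeq2 in place of edgeR, as did Dlgap1. Over all 10398 genes DESeq2 called 1019 higher and 737 lower. The classes of this comparison held as few as 7 Sst neurons in a sample.

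Sst-positive neurons differed from all other neurons in 3 of 34 genes, with Dlgap1 higher and Grm3 and Cnih3 lower. Of 11355 genes, 2.26% were higher and 2.26% lower, and the medians of the log2 fold change were -0.22 over the 34 genes and -0.17 over all. Those medians were -0.12 and -0.009 with no sample block, and 0.008 and 0.001 with equal numbers of neurons in both classes. Summed astrocyte genes were higher in Sst-positive neurons in 7 of 9 samples (medians of 285 and 167 CPM). Genes of intercalated or striatal neurons were higher in 7 of 9 (578 and 369 CPM), and endothelial genes in 1 of 9 (38.0 and 89.6 CPM). The part of these genes in the results was not tested. Grm3 lay between 0 and 5.04 CPM in Sst-positive neurons, at 0 in 5 of 9 samples, and between 6.74 and 23.3 CPM in the others (median 17.1), with no overlap. It had 23 against 1533 counts and a log2 fold change of -5.34 (SE 1.02, edgeR adjusted p = 0.00815), which was -3.98 with no sample block and -3.42 with limma. Among Prkcd-negative neurons alone, in a fit added after seeing the data, the log2 fold change of Grm3 was -5.38 (edgeR adjusted p = 0.0388), so that the difference was as large without the Prkcd neurons.

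Dlgap1 ranged from 340.8 to 504.5 CPM in Sst-positive neurons (median 394.3) and from 240.9 to 376.3 CPM in the others (median 341.1), higher in 8 of 9 samples (log2 fold change 0.33, SE 0.09, edgeR adjusted p = 0.0476). It was lost without any one of samples 1, 2, 3, 5, 7, 8 or 9, with an adjusted p of at most 0.122, and it passed among Prkcd-negative neurons (log2 fold change 0.48, adjusted p = 0.0163). Cnih3 ranged from 44.1 to 148.9 CPM (median 105.4) and from 124.5 to 194.6 CPM (median 146.6), lower in 9 of 9 samples (log2 fold change -0.56, SE 0.15, edgeR adjusted p = 0.0486). It was lost without any one of samples 1 to 8, with an adjusted p of at most 0.131, and among Prkcd-negative neurons its log2 fold change was -0.13 (SE 0.33, adjusted p = 0.906). Without the Mbp-positive neurons neither passed, with adjusted p-values of 0.223 for Dlgap1 and 0.256 for Cnih3, and with a neuron positive at a single count none of the 3 did. The other subunits and scaffolds did not pass. Of these, Gria2 had a log2 fold change of 0.24 (edgeR adjusted p = 0.114) and Dlg1 one of 0.59 (adjusted p = 0.121), and Dlg1 made the larger share of Dlg1 to Dlg4 counts in Sst-positive neurons in 9 of 9 samples, at 34.8% ± 8.44 against 26.2% ± 4.68.

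Isl1-positive neurons had less Gria1, Dlgap1 and Grm5 and more Gria3 and Grin3a than the other neurons, 5 of 33 genes tested. Of 11169 genes, 1.7% were higher and 3.15% lower, against 2 and 3 of 33. The median log2 fold change was -0.54 over the 33 genes and -0.34 over all genes, and the median over scaffold genes was -0.54. These medians depended on class size and on the fit. With equal numbers of neurons drawn from both classes of each sample they were -0.19 over the genes of the list and 0.09 over all. With no sample block they were -0.23 and -0.04. The Isl1 class was the smallest, with 6 to 17 neurons in a sample, and the deepest, and it had the higher summed astrocyte genes given above. Its summed cholinergic genes, Chat and Slc5a7, reached 403.5 CPM against 53.5 in the others, with medians of 0 in both and higher in 4 of 9 samples. Summed genes of intercalated or striatal neurons, over all neurons mostly Ppp1r1b, had medians of 213 and 424 CPM. They were higher in Isl1-positive neurons in 2 of 9 samples. Their part in the results was not tested.

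Gria1 ranged from 220.7 to 424.5 CPM in Isl1-positive neurons (median 286.4) and from 411.6 to 500.4 CPM in the others (median 465.2). It was lower in Isl1-positive neurons in each of the 9 samples (log2 fold change -0.58, SE 0.12, edgeR adjusted p = 0.0113). Gria3 ranged from 156.7 to 458.7 CPM (median 255.7) and from 134.1 to 215.3 CPM (median 158.4), higher in 9 of 9 samples (log2 fold change 0.71, SE 0.14, edgeR adjusted p = 0.0113). Of the Gria1 to Gria4 counts, Gria1 made 19.2% ± 4.33 in Isl1-positive and 26.7% ± 1.81 in other neurons, and Gria3 made 17.2% ± 6.47 and 9.49% ± 1.43, each in the same direction in 9 of 9 samples. Gria2, at 992 ± 249 against 1045 ± 50.3 CPM, did not pass.

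Grin3a ranged from 24.0 to 275.3 CPM in Isl1-positive neurons (median 104.4) and from 18.4 to 50.8 CPM in the others (median 41.4). It was higher in 8 of 9 samples, all but sample 4 (log2 fold change 1.39, SE 0.30, edgeR adjusted p = 0.0159), and 32.7% of Isl1-positive against 10.2% of other neurons were positive. Dlgap1 ranged from 159.4 to 340.3 CPM (median 235.7) and from 266.6 to 402 CPM (median 372.7), lower in 8 of 9 samples (log2 fold change -0.66, SE 0.14, edgeR adjusted p = 0.0131). Grm5 ranged from 61.1 to 265.3 CPM (median 151.6) and from 241.4 to 287.1 CPM (median 256.5), lower in 9 of 9 samples (log2 fold change -0.76, SE 0.19, edgeR adjusted p = 0.0298), and was lost without any one of samples 1, 4, 5, 6 or 8, with an adjusted p of at most 0.0772.

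**Figure D5:**
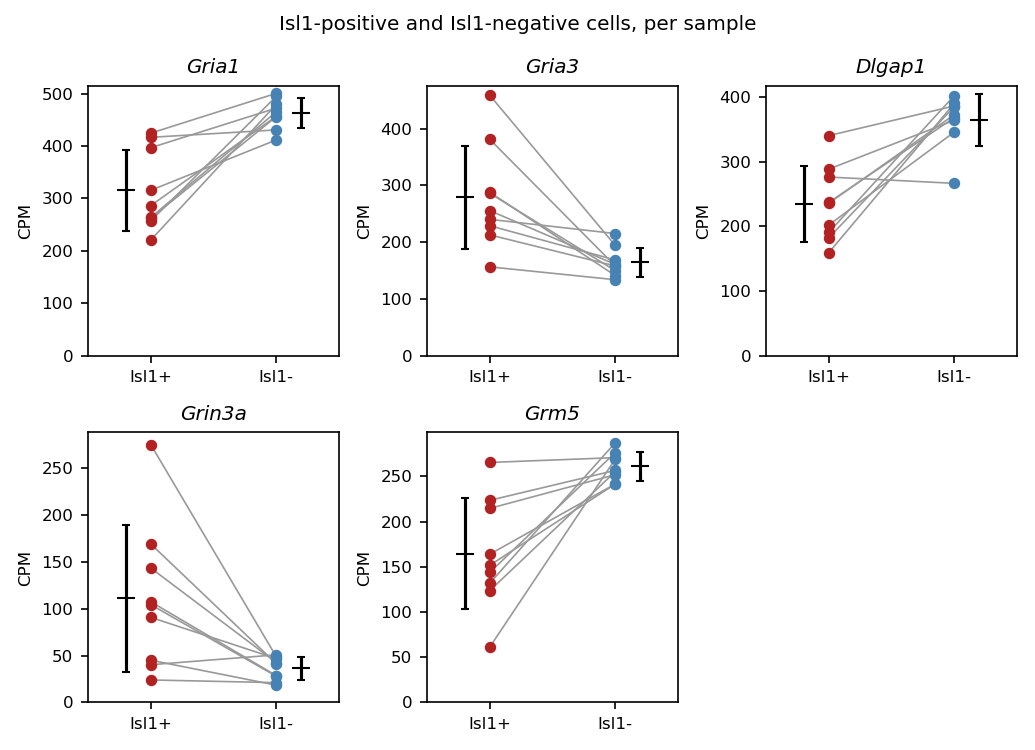
CPM of the 5 genes that passed in the Isl1 comparison, with 1 point per sample and class, lines joining the classes of a sample, and mean ± SD beside the points (9 samples). Gria1 and Grm5 are lower in Isl1-positive neurons in all 9 samples and Gria3 is higher in all 9, while the spread is wider in the Isl1-positive class.

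Only 12 of the 76 Isl1-positive neurons were Prkcd-positive, and Prkcd-negative neurons also had more Gria3 and Grin3a and less Grm5 than Prkcd-positive ones. Among Prkcd-negative neurons alone, in a fit added after seeing the data, Gria1 (log2 fold change -0.61, edgeR adjusted p = 0.0282) and Dlgap1 (-0.73, adjusted p = 0.0459) passed. Gria3 (0.55, adjusted p = 0.146), Grin3a (0.87, adjusted p = 0.186) and Grm5 (-0.60, adjusted p = 0.178) did not. Without the Mbp-positive neurons Gria1 passed (log2 fold change -0.72, adjusted p = 0.00932), and Gria3 (0.65, adjusted p = 0.0535), Grin3a (1.19, adjusted p = 0.0799), Dlgap1 (-0.56, adjusted p = 0.142) and Grm5 (-0.60, adjusted p = 0.192) did not. With as many other neurons as Isl1-positive neurons drawn from each sample, none of the 5 passed and all kept their direction, with adjusted p-values from 0.259 for Gria1 to 0.849 for Grm5. Genes with a wide difference that did not pass were Grip1, a scaffold that binds Gria2 and Gria3 proteins, at 15.0 ± 11.8 against 41.8 ± 8.38 CPM and lower in 9 of 9 samples (edgeR adjusted p = 0.0792), Grm7 at 60.1 ± 34.8 against 102.8 ± 20.4 CPM (adjusted p = 0.0596) and Cnih3 at 84.5 ± 53.4 against 153.5 ± 22.3 CPM (adjusted p = 0.0919).

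No gene of the 33 tested passed between Nr2f2-positive and other neurons by edgeR, where 0.409% of 11008 genes were higher and 1.28% lower. At an unadjusted p under 0.05 there were 6 of the 33, and 1526 of all 11008 genes. DESeq2 called 3 of the 33, with Gria1 higher and Gria2 and Cnih3 lower. Over all genes it called 174 higher and 881 lower, so these counts were near the shares over all genes. Gria1 stood at 535 ± 95.6 against 431 ± 26.8 CPM, higher in 8 of 9 samples (log2 fold change 0.30, SE 0.09, edgeR adjusted p = 0.157). Gria2 stood at 839 ± 194 against 1066 ± 74.6 CPM, lower in 7 of 9 samples (log2 fold change -0.37, SE 0.12, edgeR adjusted p = 0.150). Of the AMPA subunit counts, Gria1 made 34.1% ± 6.54 against 24.8% ± 1.59, larger in 8 of 9 samples, and Gria2 made 52.3% ± 6.17 against 61.2% ± 2.64, smaller in 8 of 9. Among Prkcd-negative neurons, in the fit added after seeing the data, Gria2 passed (log2 fold change -0.62, edgeR adjusted p = 0.0428). Among Prkcd-positive neurons Gria2 was at -0.18 (SE 0.16, adjusted p = 0.821) and 0 of 26 genes passed. These 2 fits were of unlike size. The former had 69 Nr2f2-positive neurons and used 8 samples, the latter had 47 and used 6, and a difference between them was not tested. Cnih3 stood at 93.8 ± 38.6 against 153.4 ± 31.5 CPM (log2 fold change -0.78, edgeR adjusted p = 0.137). The median log2 fold change was -0.33 over the 33 genes and -0.24 over all, and -0.05 and -0.003 with no sample block. Summed genes of intercalated or striatal neurons, over all neurons mostly Ppp1r1b, were lower in Nr2f2-positive neurons. Their medians were 147 and 458 CPM, and they were higher in 0 of 9 samples. Their part in these values was not tested.

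Foxp1-positive and other neurons likewise differed in 0 of 34 genes by edgeR, where 0.176% of 11332 genes were higher and 0.0529% lower. At an unadjusted p under 0.05 there were 3 of the 34, and 1107 of all 11332 genes, a like share. DESeq2 called 2 of the 34, Grm5 and Grin2b, both higher, and over all genes 119 higher and 386 lower. Grm5 stood at 300.0 ± 33.0 against 235.9 ± 22.8 CPM and was higher in 9 of 9 samples (log2 fold change 0.35, SE 0.09, edgeR adjusted p = 0.203). Grin2b stood at 218 ± 59.1 against 157.9 ± 39.6 CPM, higher in 7 of 9 samples (log2 fold change 0.46, SE 0.13, edgeR adjusted p = 0.213). Grik2 stood at 28.6 ± 20.8 against 43.2 ± 6.84 CPM, with a log2 fold change of -0.85 (edgeR adjusted p = 0.446). The log2 fold change was above 0 for 27 of the 34 genes and for 3789 of all 11332 genes. Its median was 0.17 over the 34 genes and -0.13 over all genes. With no sample block the medians were 0.23 and 0.001. Summed astrocyte genes were higher in Foxp1-positive neurons in 1 of 9 samples (medians of 96.2 and 215 CPM). Summed genes of intercalated or striatal neurons were higher in 7 of 9 samples (519 and 366 CPM). Their part in these values was not tested. In fits added after seeing the data, Grm5 and Grin2b were above 0 among Prkcd-negative neurons and within 1 SE of 0 among Prkcd-positive neurons. A difference between these fits was not tested. Among Prkcd-negative neurons (118 with Foxp1, 9 samples used) Grm5 had a log2 fold change of 0.61 (SE 0.16, edgeR adjusted p = 0.164). Grin2b had one of 0.62 (SE 0.16, edgeR adjusted p = 0.146). Among Prkcd-positive neurons (49 with Foxp1, only 6 samples used) Grm5 was at -0.28 (SE 0.29, edgeR adjusted p = 0.919). Grin2b was at -0.20 there (SE 0.24, edgeR adjusted p = 0.932). The median was 0.18 over 33 genes in the former, against -0.19 over all genes, and -0.20 over 26 genes in the latter, against -0.29 over all.

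A second list held 46 genes whose proteins work with these receptors, such as the TARP and other auxiliary subunits, neuronal pentraxins, olfactomedins, adhesion proteins and further scaffolds, of which 45 were in the table and Nptxr was not used here. In the Prkcd comparison 7 of 39 were higher and 6 lower, where 7.6% of all genes were higher and 9.74% lower. Olfm1, an olfactomedin found with AMPA receptors, was 891 ± 166 against 486 ± 120.0 CPM (log2 fold change 0.91, edgeR adjusted p = 8.84e-06). Lrrtm1, an adhesion protein of excitatory synapses, was 30.4 ± 16.0 against 69.5 ± 14.6 CPM (log2 fold change -1.27, edgeR adjusted p = 0.000597). The TARP Cacng2, or stargazin, which brings AMPA receptors to the membrane, had a log2 fold change of -1.65 (edgeR adjusted p = 0.000673), and Olfm3 one of -1.98 (adjusted p = 0.00135).

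Between Prkcd and Sst neurons 1 of 38 partner genes was higher and 3 were lower, where 4.38% of all genes were higher and 4.06% lower. Olfm1 was higher (log2 fold change 1.15, edgeR adjusted p = 5.3e-05), and Lrrtm1 (-1.30, adjusted p = 0.00709), Baiap2 (-0.46, adjusted p = 0.0130) and Dlgap4 (-0.49, adjusted p = 0.0414) were lower. Baiap2 encodes IRSp53, an actin regulator of the postsynapse, and Dlgap4 is a relative of Dlgap1. In the Sst comparison, where 2.26% of all genes were called each way, 2 of 39 were higher, Baiap2 (0.56, edgeR adjusted p = 0.0169) and Dlgap4 (0.39, adjusted p = 0.0469), and 2 were lower, Olfm1 (-0.68, adjusted p = 0.00642) and Olfm2 (-1.08, adjusted p = 0.0299).

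In the Isl1 comparison 1 of 39 partner genes was higher and 4 were lower, where 1.7% of all genes were higher and 3.15% lower. The TARP Cacng3 was 68.5 ± 15.3 against 136.1 ± 23.4 CPM (1.99-fold lower, edgeR adjusted p = 0.00343), and Baiap2 (-0.77, adjusted p = 0.00389) and Olfm1 (-0.59, adjusted p = 0.0172) were also lower. Olfm2 was higher (1.05, edgeR adjusted p = 0.0215). No partner gene passed for Nr2f2 or Foxp1 by edgeR. At an unadjusted p under 0.05 there were 7 of 39 for Nr2f2, and 1526 of all 11008 genes. For Foxp1 there were 6 of 39, and 1107 of all 11332 genes.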

How the data were processed

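The authors deposited raw counts per gene and cell from single-cell RNA sequencing of the central amygdala of wild-type mice. The submitters' processing notes name the build NCBIM37 and the tool Seurat. Aligner, annotation, strand of counting and any molecular identifiers: not given in the sources used here. Cells were assigned to samples by the sample name in their identifiers. Spike-in rows were dropped. Of 829 cells, 19 were left out as not inhibitory; no doublet caller was run, and 9 neurons had under 20000 counts (lowest 401). Of 376 well barcodes, 368 occur in more than 1 sample, as plates reuse them.

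Counts were summed per sample and class (at least 5 cells) and tested with edgeR 4.0.16 (quasi-likelihood test with a block for the sample, TMM scaling, filterByExpr, Benjamini-Hochberg adjustment) in R 4.3.3, after a test on simulated data. Standard errors were derived from the fold change and the F statistic. CPM values are counts scaled to a total of 1000000 per sample and class. Fold changes of the fit differ from ratios of mean CPM. The limit for a share of 0 uses 3 cells of the class. Alternatives used DESeq2 1.42.0, limma 3.58.1 (log2 with a pseudocount of 1), other thresholds for positive cells, thinning to 50000 counts (22 neurons left out) and left-out samples.

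All 35 genes are named, with per-sample values for up to 6 per comparison by smallest adjusted p, and up to 4 partner genes. The genes, lists and comparisons were chosen with earlier results of these data known.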

Additional observations from a re-analysis of the deposited data

Results flagged for a closer look

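In 17 of 120 sets of 9 sample values checked, the highest or lowest sample lay apart from the other 8 by more than Dixon's 95% limit, which chance passes in about 1 set in 20. Sample 1 was low for Gria1, positive in 83.2% of its neurons against 91.1% to 94.6% in the others. It was also low for Dlgap1, at 269 CPM in all neurons (others 328 to 382), 240.9 CPM in Sst-negative neurons (others 317 to 376) and 266.6 CPM in Isl1-negative neurons (others 346 to 402).

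Sample 5, the most deeply sequenced, was high for Grin2c, at 2.18 CPM and 1.08% of neurons positive, where the others reached 0.505 CPM and 0%. It was also high for Grm2, positive in 3.23% of neurons against 0% in each other sample, and low for Grik4 in Prkcd-negative neurons, at 8.96 CPM (others 17.6 to 25.2). Sample 2 was high in Prkcd-positive neurons for Grik4, at 16.9 CPM (others up to 5.44), and for Grm8, at 22.7 CPM (others up to 11.1). Sample 9 was high for Cnih2, at 66.4 CPM (others 37.7 to 51.8), and for Grip1, at 55.3 CPM (others 31.4 to 43.2).

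Sample 4 was high for Grin2d, positive in 8.42% of neurons (others 1.08% to 4.21%), and for Grm2 in Prkcd-positive neurons, at 2.57 CPM (others up to 1.22). Sample 7 was high for Dlgap3, at 59.9 CPM (others 19.9 to 39.9), and for Grm3 in Sst neurons without Prkcd, at 6.65 CPM (others up to 3.23). Sample 8 was high for Dlg1 in Prkcd-negative neurons, at 107.6 CPM (others 46.3 to 74.2).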

How the results depend on the processing

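No gene of the 35 that passed changed direction under any setting run. Gria3 and Cnih3 in both Prkcd comparisons, and Grin3a in the Prkcd comparison, passed in all 20 or 21 alternatives, while Dlgap3 passed in 3 of 21 and Cnih3 and Dlgap1 of the Sst comparison in 7 of 21 each. In what follows, a pair of numbers gives the genes that passed as higher and as lower; the cause of each change was not tested. Among the receptor and scaffold genes the pairs were 2 and 2 for Prkcd against Sst, 4 and 9 for Prkcd, 1 and 2 for Sst, 2 and 3 for Isl1, and 0 and 0 for Nr2f2 and Foxp1. They were 3 and 6 for Prkcd against Sst, 3 and 3 for Sst, 3 and 8 for Isl1, 1 and 2 for Nr2f2 and 2 and 0 for Foxp1 with DESeq2; 2 and 9 for Prkcd and 0 and 2 for Sst with no count filter; 1 and 1 for Sst with median-of-ratios scaling; and 2 and 9 for Prkcd with thinned neurons. With no sample block they were 2 and 4 for Prkcd against Sst and 0 and 1 for Sst. With limma on mean CPM of single neurons they were 2 and 10 for Prkcd, 0 and 2 for Sst and 2 and 7 for Isl1. With a neuron positive at 1 count they were 1 and 1 for Prkcd against Sst, 1 and 2 for Prkcd, 0 and 0 for Sst and 2 and 6 for Isl1. At 3 per 10000 they were 2 and 4 for Prkcd against Sst and 2 and 2 for Sst, and Isl1 could not be fitted. With equal numbers of neurons they were 2 and 7 for Prkcd, 0 and 1 for Sst and 0 and 0 for Isl1. Without Mbp-positive neurons they were 2 and 1 for Prkcd against Sst, 2 and 5 for Prkcd, 0 and 1 for Sst and 0 and 2 for Isl1. Among Prkcd-negative neurons they were 1 and 1 for Sst, 0 and 2 for Isl1 and 0 and 1 for Nr2f2. Leaving out each sample in turn gave 1 to 4 lower genes for Prkcd against Sst, 2 to 3 higher for Prkcd, and 0 to 1 higher and 1 to 2 lower for Sst.

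Over all genes, 455 and 422 passed for Prkcd against Sst, 873 and 1119 for Prkcd, 257 and 257 for Sst, 190 and 352 for Isl1, 45 and 141 for Nr2f2, and 20 and 6 for Foxp1. For Prkcd against Sst the counts were 1019 and 737 with DESeq2, 736 and 487 with limma, 125 and 93 at 1 count, 230 and 253 with equal numbers, and 218 and 193 without Mbp-positive neurons. For Prkcd they were 377 and 280 at 1 count and 559 and 814 without Mbp-positive neurons. For Sst they were 466 and 884 with DESeq2, 272 and 597 with limma, 14 and 0 at 1 count, 118 and 62 with equal numbers, 97 and 103 without Mbp-positive neurons, 143 and 94 among Prkcd-negative neurons, and 171 to 252 and 145 to 226 with a sample left out. For Isl1 they were 497 and 1492 with DESeq2, 250 and 945 with limma, 359 and 374 at 1 count, 24 and 19 with equal numbers, 96 and 201 without Mbp-positive neurons, and 44 and 59 among Prkcd-negative neurons. For Nr2f2 they were 174 and 881 with DESeq2, 66 and 392 with limma, 21 and 160 with no filter, 72 and 96 at 1 count, 4 and 9 at 3 per 10000, 2 and 8 with equal numbers, 15 and 53 without Mbp-positive neurons, 19 and 82 among Prkcd-negative and 1 and 0 among Prkcd-positive neurons, and 21 to 33 and 63 to 109 with a sample left out. For Foxp1 they were 119 and 386 with DESeq2, 28 and 27 with limma, 17 and 18 with no filter, 23 and 2 with no sample block, 3 and 0 at 1 count, 36 and 53 at 3 per 10000, 6 and 1 with equal numbers, 3 and 1 without Mbp-positive neurons, 1 and 1 among Prkcd-positive neurons, and 2 to 27 and 0 to 15 with a sample left out. Leaving out neurons under 20000 counts, and leaving Sst and Isl1 neurons out of the Prkcd comparison, moved no count by over 1.5 times. Shares of positive neurons moved by more than 1 SD for 34 of 35 genes at 1 count, for 30 at 3 per 10000 and for 0 with thinned neurons. Grin2c and Grm2 had 54 and 401 counts over all neurons. Both classes of a comparison come from the same 9 samples, so each edgeR fit was paired by a block for the sample, except the one with no sample block.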
